A study of Arabidopsis thaliana with 3 samples.

Results

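The transcripts described here are those of the chloroplast genome in Arabidopsis thaliana sperm cells. They were chosen by identifier alone, as every entry of the deposited expression table whose ID starts with ATCG, which gave 133 of the 33602 listed transcripts, 1 per locus. The RNA came from male gametes of wild type Col-0, the standard laboratory ecotype, isolated by fluorescence-activated sorting. Libraries were prepared by Smart-seq2, in which cDNA synthesis from small amounts of RNA is primed on poly(A) tails. The labels describe 3 such libraries and give neither plant age nor culture. By its title, the study was about how H3K27me3, a repressive histone mark, is reset in chromatin inherited from the father. The table holds 1 value per transcript for these libraries, the authors' mean in TPM (a transcript's length-corrected share, scaled so that each column totals 1000000). No value below therefore carries an SD, and no difference was tested against the spread between libraries. TPM keeps no read counts, so depth is unknown and an entry of 0 is given only as listed at 0. The 7 male germline markers, among them the sperm histone gene MGH3 (AT1G19890, also called HTR10), were all at or above 1 TPM with a median of 4750 TPM. Of the 5 markers of the surrounding vegetative cell and the pollen tube, 4 were at or above 1 TPM, with a median of 78.9 TPM and a range of 0.035 to 127 TPM. The part of the vegetative cell's RNA in the levels below was not tested.

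Chloroplasts keep a small genome of bacterial origin that encodes core subunits of the photosystems, the cytochrome b6f complex and ATP synthase, the large subunit of Rubisco, a bacterial-type RNA polymerase, and ribosomal proteins, ribosomal RNAs and transfer RNAs. Nearly all other plastid proteins are encoded in the nucleus and imported. In most land plants the genome carries a large inverted repeat, a stretch present in 2 copies of opposite orientation, which holds the ribosomal RNA genes. Plastids of Arabidopsis are inherited almost entirely through the mother, and plastid RNAs mostly lack the long poly(A) tails of nuclear messenger RNAs. The reference table used for gene names lists 129 plastid genes, 85 of them protein coding, 7 ribosomal RNA and 37 transfer RNA, under locus tags that matched 0 of the 133 IDs. The members are therefore described by ID, with no gene name or role attached to any of them.

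Chloroplast transcripts were scarce in sperm. Their 133 values summed to 78.6 TPM, which was 0.00786% of the column. Only 6 members (4.51%) reached 1 TPM, against 21.7% of all listed transcripts. A further 50 lay between 0 and 1 TPM, 23 of them at or above 0.1 TPM and 27 below it, and 77 (57.9%) were listed at 0. The share above 0 was 42.1% for chloroplast IDs and 56.9% for all listed transcripts. The median over all members was 0 TPM, against 0.0209 TPM over the whole table. Among entries above 0, the median was 0.113 TPM for chloroplast IDs and 0.352 TPM for the whole table. In a bulk sample, fewer plastids per cell, fewer cells that hold them and less RNA per plastid cannot be told apart. The share of plastid RNA without a poly(A) tail was not measured, and its part in these levels was not tested. The reference counts 37 transfer RNA and 7 ribosomal RNA genes among its 129 plastid genes. Which of the 133 IDs stand for such genes could not be told here, so their part in the entries at 0 was not tested.

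**Figure D1:**
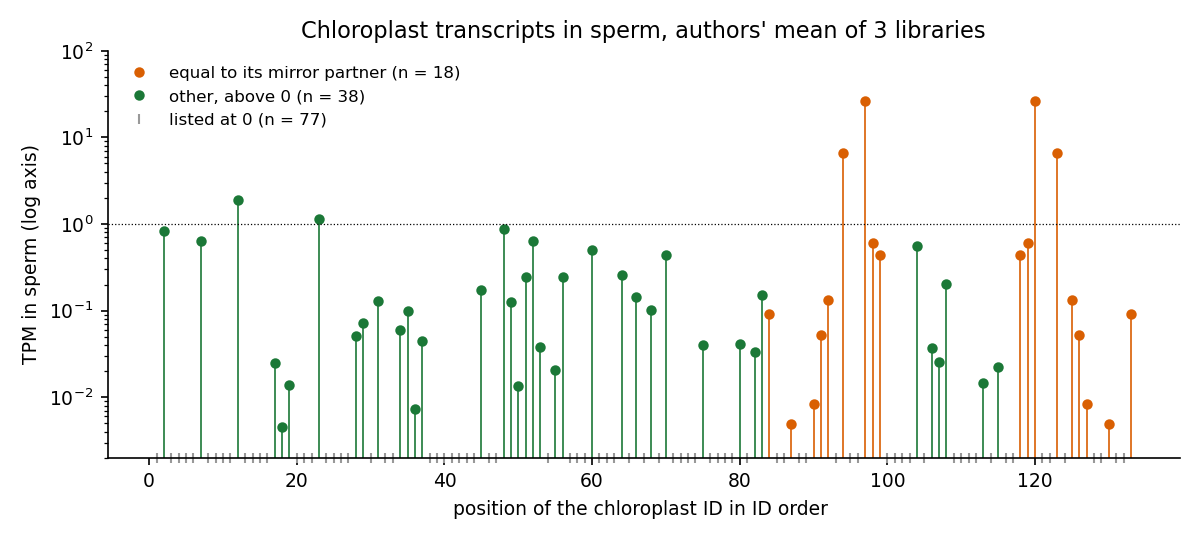
TPM in sperm (log axis) of each chloroplast transcript against its place in the order of the 133 IDs; each point is the authors' mean of 3 libraries, orange points are IDs whose value equals that of a mirror-placed partner, green points are other IDs above 0, grey ticks are IDs listed at 0, and the dotted line is 1 TPM. The 4 highest points are 2 mirrored pairs at 26.5 and 6.52 TPM, and 2 green points lie just above the line.

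The chloroplast signal was carried by very few IDs. ATCG00950 and ATCG01180 were each at 26.5 TPM, and this pair alone summed to 52.9 TPM, or 67.3% of all chloroplast TPM. ATCG00920 and ATCG01210 were each at 6.52 TPM. With this second pair the 4 highest IDs held 65.9 TPM, or 83.9% of the chloroplast total. The other 2 members at or above 1 TPM were ATCG00110 at 1.87 TPM and ATCG00220 at 1.15 TPM. Below the threshold the highest members were ATCG00470 at 0.878 TPM and ATCG00020 at 0.827 TPM, so no wide gap separates the members just above 1 TPM from those just below it. The lowest entry above 0 was ATCG00170 at 0.00454 TPM.

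The equality of these pairs extended to a block of IDs in mirror order. Among the members above 0, 10 values were each carried by 2 IDs, equal to every deposited digit. In 9 of the 10 the partners were placed as mirror images in the order of the IDs, the first counted upward from ATCG00830 and the second downward from ATCG01310, the last chloroplast ID of the table. From the outermost of these pairs to the innermost, ATCG00970 with ATCG01160, the mirror order ran over 16 pairs (32 IDs). In 9 of them both IDs had the same value above 0, in 7 both were listed at 0, and in 0 did the values differ. The centre and ends of the block were taken from the 9 equal pairs, so only the other 7 pairs could have differed. Of all chloroplast members 57.9% were listed at 0. The sequences and map positions behind the IDs were not analysed here, and whether these pairs are the 2 copies of the inverted repeat was not tested. Where 2 transcripts are identical, reads cannot be assigned to one or the other, and the sum of a pair is then better defined than either value.

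The 9 pairs above 0 spanned a wide range of levels. Inward from the outside, both ATCG00830 and ATCG01310 were at 0.0914 TPM, and both ATCG00860 and ATCG01280 were at 0.0049 TPM. ATCG00890 and ATCG01250 were each at 0.00835 TPM, ATCG00900 and ATCG01240 at 0.0522 TPM, and ATCG00905 and ATCG01230 at 0.133 TPM. The highest values lay toward the inner end, at the pairs of 6.52 and 26.5 TPM already given. These were followed by ATCG00960 and ATCG01170 at 0.607 TPM each and by ATCG00970 and ATCG01160 at 0.442 TPM each. The 2 highest pairs were not adjacent in ID order, since ATCG00930 and ATCG00940, which lie between ATCG00920 and ATCG00950, were listed at 0, as were their partners ATCG01200 and ATCG01190. Together the 9 pairs summed to 68.6 TPM, or 87.3% of chloroplast TPM. The end of the block was set at the innermost equal pair above 0, and past it no pair shared a value above 0. Of the 9 remaining mirror positions, 4 had both IDs at 0 and 5 had unequal values, the first of them ATCG01000, listed at 0, with ATCG01130 at 0.0226 TPM. The widest apart in TPM was ATCG01020 at 0.563 TPM with ATCG01110 at 0.0145 TPM.

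**Figure D2:**
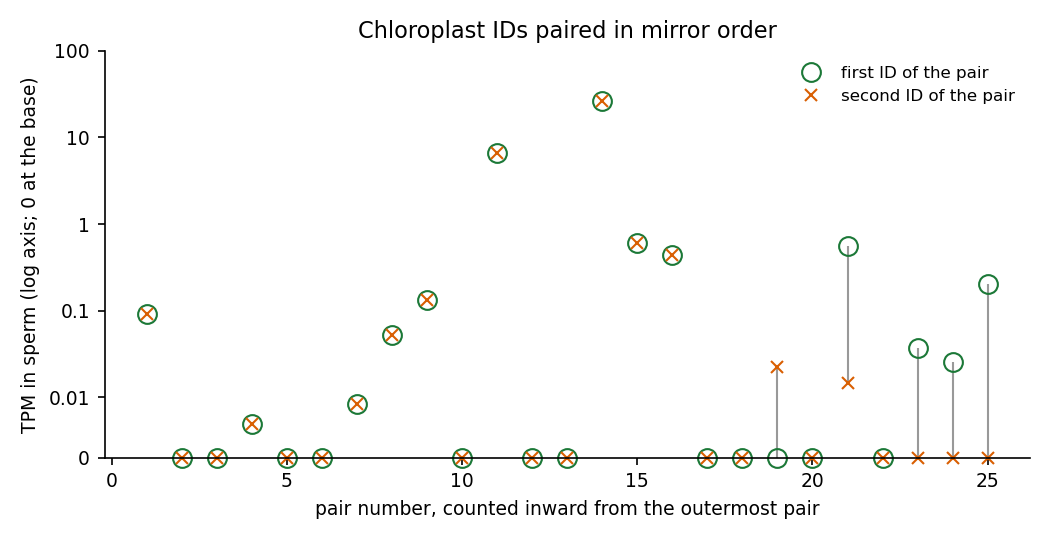
TPM in sperm (log axis, with 0 drawn at the base) of the 2 IDs of each mirror pair against the pair's number, counted inward from the pair of ATCG00830 and ATCG01310; circles are the first ID, crosses the second, and grey lines join unequal values. Circles and crosses coincide for pairs 1 to 16 and part at pair 19 and at 4 pairs further inward.

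The 115 members outside the 9 pairs contributed 9.94 TPM in all. Of these, 38 were above 0 and only ATCG00110 and ATCG00220 reached 1 TPM. After ATCG00470 and ATCG00020 came ATCG00065 and ATCG00510, both at 0.636 TPM. They share their value to the last digit but are not placed as mirror images. ATCG01020 at 0.563 TPM was next, followed by ATCG00590 at 0.500 TPM and ATCG00690 at 0.441 TPM. Members listed at 0 were spread over the ID order in short runs. The longest run held 7 consecutive IDs, ATCG00370 to ATCG00430, and the next held 4 each.

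Set beside the other organellar genome in the same libraries, chloroplast transcripts were lower in sum. The chloroplast sum of 78.6 TPM was 2.83% of the mitochondrial sum of 2777 TPM, and the log2 ratio of both sums, each with 1 TPM added, was -5.13. Of chloroplast IDs 6 of 133 (4.51%) were at or above 1 TPM, against 27 of 146 mitochondrial IDs (18.5%). The shares listed at 0 were close, at 57.9% of chloroplast and 54.8% of mitochondrial IDs. Mitochondrial TPM was concentrated as well. The 3 highest mitochondrial IDs, ATMG00020 at 1220 TPM, ATMG00030 at 1077 TPM and ATMG01390 at 322 TPM, held 94.3% of the genome's sum. Without the equal pairs of the chloroplast genome and these 3 mitochondrial IDs the log2 ratio was -3.87, from sums of 9.94 and 159 TPM. The medians over all IDs were 0 TPM for both genomes. With single means, the difference in sums cannot be set against the spread between libraries. The share of RNA with a poly(A) tail was not measured for either genome, and its part in this difference was not tested.

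**Figure D3:**
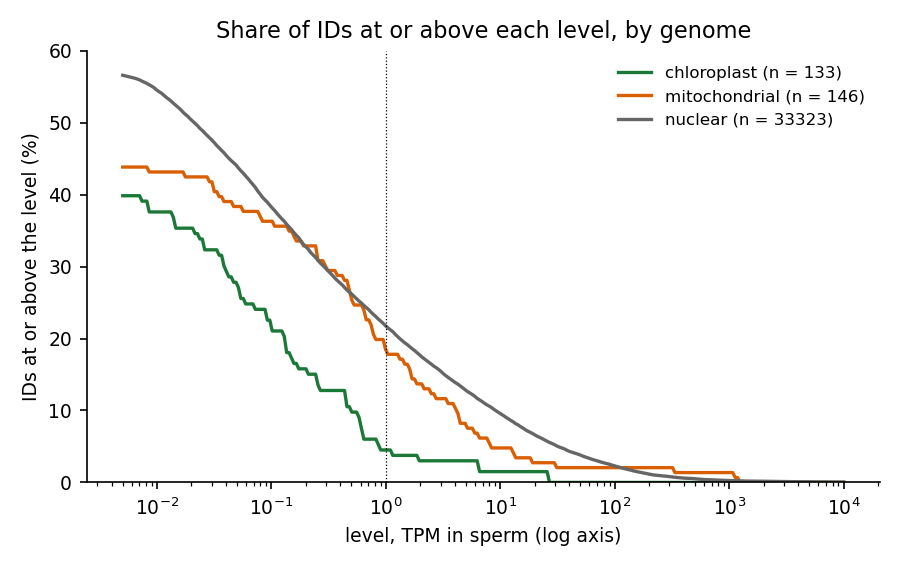
Share of IDs (%) at or above each level of TPM in sperm (log axis) for chloroplast (133), mitochondrial (146) and nuclear (33323) IDs; the dotted line is 1 TPM. At that level the chloroplast curve is at 4.51%, the mitochondrial curve at 18.5% and the nuclear curve at 21.8%.

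Nuclear genes whose products act in plastids lay below or above the share of all listed transcripts depending on the level asked for. Over 7 lists with 64 genes, 9 (14.1%) were at or above 1 TPM, against 21.7% of all listed transcripts, but at or above 0.1 TPM the shares were 40.6% and 38.2%. Of these genes 75% were above 0, with a median of 0.0369 TPM over all 64, against 56.9% and 0.0209 TPM for all listed transcripts. Without the leaf photosynthesis list, 6 of 54 genes (11.1%) were at or above 1 TPM. None of the 8 genes for plastid RNA polymerases of the phage type and for sigma factors, which direct the plastid-encoded polymerase to promoters, reached 1 TPM. The highest were the sigma factor gene SIGC (AT3G53920) at 0.515 TPM and AT5G15700, which has no symbol in the reference, at 0.358 TPM. Likewise 0 of 12 genes for proteins bound to the plastid-encoded polymerase did, with PTAC7 (AT5G24314) at 0.397 TPM and MURE (AT1G63680) at 0.383 TPM the highest. These counts hold for the 1 TPM level only. At or above 0.1 TPM were 50% of these 12 genes and 25% of the 8 before them, against 38.2% of all listed transcripts. Above 0 were 83.3% and 75%, against 56.9%. Of 14 genes for plastid ribosomal proteins, 7 (50%) were listed at 0, against 43.1% of all listed transcripts. In the other lists the share at 0 was lower, from 10% to 33.3%. Of the 14 genes, 2 (14.3%) were at or above 1 TPM. These were RPL15 (AT3G25920) at 3.58 TPM and PRPL28 (AT2G33450) at 2.58 TPM, both for proteins of the large subunit.

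In the lists of other plastid functions a few genes reached 1 TPM, at shares of 16.7% for plastid DNA, 28.6% for division, 14.3% for import and 30% for leaf photosynthesis. With 6 to 10 genes a list, these shares do not set the lists apart from the 21.7% of all listed transcripts. DPD1 (AT5G26940), an exonuclease gene needed for the breakdown of organelle DNA in pollen, was at 6.36 TPM and was the only one of 6 plastid DNA genes at or above 1 TPM. The next highest of that list was the organelle DNA polymerase gene POLGAMMA1 (AT3G20540) at 0.108 TPM. In plastid division, FTSZ1-1 (AT5G55280), which encodes a tubulin-like protein of the division ring, was at 9.66 TPM. ARC5 (AT3G19720), a dynamin-related gene that acts on the outer envelope at the division site, was at 2.80 TPM, and the other 5 of 7 division genes were below 1 TPM. The import receptor gene TOC159 (AT4G02510) was at 14.7 TPM, the next of the 7 import genes being the receptor gene TOC34 (AT5G05000) at 0.594 TPM. Among 10 nuclear genes of leaf photosynthesis, 3 Rubisco small subunit genes were at or above 1 TPM, RBCS3B (AT5G38410) at 795 TPM, RBCS1B (AT5G38430) at 29.1 TPM and RBCS2B (AT5G38420) at 7.01 TPM. These are near-identical neighbours, so how their reads were shared out is uncertain. All 10 genes of that list also serve as markers of green tissue, and these 3 (30%) were the ones that reached 1 TPM. A further gene of the Rubisco small subunit family, RBCS1A (AT1G67090), was at 0.185 TPM. The 6 genes of the list outside that family ranged from 0 to 0.257 TPM.

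**Figure D4:**
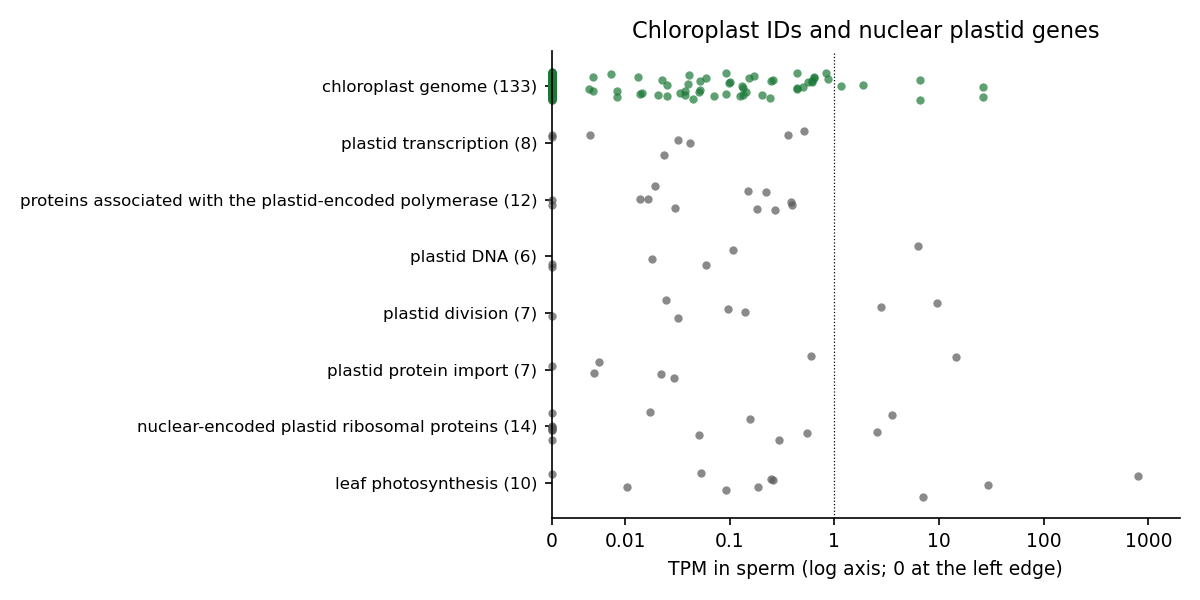
TPM in sperm (log axis, with 0 drawn at the left edge) of the 133 chloroplast IDs, in the top row, and of the genes of 7 nuclear lists of plastid function, with the number of genes in brackets; each point is 1 transcript, points are spread vertically only for legibility, and the dotted line is 1 TPM. In each list of plastid transcription genes all points lie left of the line, while TOC159 at 14.7 TPM, FTSZ1-1 at 9.66 TPM and DPD1 at 6.36 TPM lie right of it.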

How the data were processed

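The labels describe 3 sperm libraries, which form 1 group. The deposited table gives TPM in 1 sperm column, which the authors averaged over the libraries. The averaging was checked from 2424 values between 10 and 100 TPM: after multiplication by 3, 100% had no digit beyond 0.00001 TPM (tolerance 0.03 of that step), against 33.4% without it. Per the submitters' processing notes, the tools were kallisto 0.43.1, STAR 2.5.2a, Trim Galore 0.4.1, bedtools and SAMtools and the build was TAIR10, with no role or order stated. No source used here gives the annotation quantified, any filter or the treatment of reads that match several transcripts. The other 13 value columns name tissues or cells outside the samples described and were not used.

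Counts at or above 1 TPM, sums, medians and log2 ratios of sums plus 1 TPM were computed with Python 3.11.15 and pandas 2.3.3, with no filter and no test. The digit check and the search for mirror pairs were tested on simulated data. Gene symbols came from RefSeq (assembly TAIR10.1), in which 64 of 64 nuclear list genes matched. Members and lists were chosen with earlier results of these data known. Named were all members at or above 1 TPM, equal pairs, and the 2 highest of each nuclear list with any other at or above 1 TPM. The planned 2 highest members of each role were not named, for want of roles. Other members were named after their values were seen.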

Additional observations from a re-analysis of the deposited data

How the results depend on the processing

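The values describe 1 column of means, so the spread between libraries is unknown. At 0.1 TPM, 29 chloroplast members (21.8%) and 26 nuclear plastid genes (40.6%) passed, in place of 6 and 9, against 38.2% of all listed transcripts. The nuclear share was thus above that of all transcripts at 0.1 TPM and below it at 1 TPM. At 5 TPM, 4 (3.01%) and 6 (9.38%) passed, against 12.7%. Rescaling without the 10 highest transcripts multiplied levels by 1.83, which gave 13 chloroplast members at or above 1 TPM, a chloroplast sum of 144 TPM and 10 nuclear plastid genes. Of all listed transcripts 25.5% passed on that scale. Rescaling without organellar transcripts kept the count at 6. The chloroplast sum was 52.1 TPM without its highest member and 9.94 TPM without the equal pairs. Merging each equal pair, chosen after seeing the data as were the alternatives for nuclear genes, gave 5 members at or above 1 TPM. The log2 ratio of chloroplast to mitochondrial sums was -5.14 with 0.1 TPM added, -4.87 without the highest ID of each genome, -3.87 without the equal pairs and the 3 highest mitochondrial IDs, and 0 as a difference of median log2(TPM + 1), since both medians are 0. Restriction to protein-coding members was not run, because the reference does not pair the IDs with genes, nor was leaving out each replicate. No paired analysis was possible because the column holds 1 mean.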

Other observations

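The digits of a mean show in part how many libraries carried a transcript. If each library's value was written with 6 significant digits, as the digits of the means imply, 3 times a mean with more digits than that needs at least 2 libraries above 0. Of the 56 chloroplast members above 0, 18 (32.1%) had such digits, among them the pairs at 6.52, 0.607 and 0.442 TPM and ATCG00470 and ATCG00020. The other 38 had 3 times their mean equal to a single number of 6 digits or fewer, including the pair at 26.5 TPM, ATCG00110 and ATCG00220. Such digits arise from 1 library alone and also from several libraries of like level, so they do not show which. Below 1 TPM and from the lowest member upward, 16 of 50 chloroplast members (32%) needed at least 2 libraries, against 5162 of 11650 nuclear transcripts (44.3%). Both IDs of each equal pair enter the chloroplast counts, so these members are not all separate values.

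Some chloroplast values were equal to those of nuclear transcripts to every deposited digit. This held for 9 of the 56 members above 0. ATCG00110 had the same 1.87 TPM as AT1G20820, and ATCG00550 the same 0.244 TPM as both AT3G22436 and AT4G25707. ATCG00490, at 0.0134 TPM, equalled UGT85A5 (AT1G22370). Below 1 TPM, 8 of 50 chloroplast members (16%) had such a nuclear partner, while 8.35% of nuclear transcripts over the same range shared their value with another nuclear transcript. All 9 members with a nuclear partner had digits that did not need 2 libraries. In that range 32% of chloroplast members and 44.3% of nuclear transcripts needed at least 2. The part of this in the shares of equal values was not tested. Transcripts of the same length with the same estimated reads in each library get equal TPM, whatever their sequence. Whether any of these transcripts share sequence was not tested.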
